A study of Drosophila melanogaster with 58 samples.

Results

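The genes described here encode subunits of the 5 complexes of mitochondrial oxidative phosphorylation in *Drosophila melanogaster*, chosen by symbol as all genes whose current or older symbol begins with ND-, SdhA to SdhD, UQCR, COX4 to COX8 or ATPsyn. They numbered 72 of the 11982 genes with a probe set to which the platform annotation gives 1 gene symbol. Complex I held 32 of them, complex II 6, complex III 6, complex IV 14 and complex V 14. Within these, 21 were duplicate genes, whose symbol is that of another subunit followed by L, L1 or L2, and the other 51 are called subunit genes below: 27 in complex I, 3 in complex II, 4 in complex III, 7 in complex IV and 10 in complex V. ND-MLRQ was counted in complex I by its symbol, although its mammalian counterpart has since been placed in complex IV. Each gene was read from 1 probe set, the one with the highest mean over all 58 arrays. Whether its probes also match transcripts of other genes, such as a parent and its duplicate, was not checked.

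RNA was extracted from whole heads of unmated adult Oregon R males, a wild-type strain, and hybridised to Affymetrix Drosophila Genome 2.0 arrays. The flies were 3 to 4 days old when feeding began, were kept at 25 °C with 30 flies in a vial, ate their food for 7 days and were 10 days old at collection. There were 15 food groups of 4 arrays each, apart from moxifloxacin with 2. One group ate plain food (normal food), 8 groups ate food with a single compound, and 6 groups ate pentylenetetrazole (PTZ) together with a second compound. PTZ blocks GABA receptors and is used to provoke seizures. The single compounds besides PTZ were levetiracetam, an antiepileptic drug, Glucosamine Hydrochloride, an amino sugar, mannitol, a sugar alcohol, Olmesartan Medoxonil (spelled as in the labels) and Quinapril Hydrochloride, both blood pressure drugs, Moxifloxacin Hydrochloride, an antibiotic, and gemfibrozil, a lipid-lowering drug. PTZ was combined with levetiracetam, glucosamine, mannitol, olmesartan, quinapril and oxaprozin, an anti-inflammatory drug that was not analysed here alone. The sources used here give no doses. Whether a group's arrays came from separately raised flies is not stated, so p-values measure only the spread between arrays.

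Oxidative phosphorylation moves electrons from NADH through complex I, or from succinate through complex II, to ubiquinone, then through complex III and cytochrome c to complex IV, where oxygen is reduced. Complexes I, III and IV pump protons across the inner membrane, and complex V, the ATP synthase, makes ATP as the protons flow back. Neurons depend heavily on this pathway, and its genes are carried partly by the mitochondrial genome, whose genes were not analysed here. Several core subunit genes, such as SdhA, UQCR-C1 and ND-49, were not analysed here either. In fruit flies many subunits also have a duplicate gene that is expressed mainly in the testis.

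Values are log2 levels, so a difference of 1 is a doubling, and the number of arrays limits their precision. A gene is said to have risen, fallen or been called when its Benjamini-Hochberg adjusted p in a limma fit over all 58 arrays and 18769 probe sets was under 0.05. Probe sets were not tested against background. Array medians ran from 3.6757 to 3.8486, and for genes below them a difference is one of probe signal near the low end of the scale, not a measured fold of transcript. Of the 51 subunit genes, 48 had a mean level of at least 8 over all arrays. The other 3 were ND-B8 with a mean level of 2.18, ND-B12 with 4.67 and UQCR-11 with 6.12. Of the 21 duplicate genes, 19 had a mean level under 4, and the other 2 were UQCR-11L with 6.68 and COX7AL2 with 10.64. Heads carry photoreceptors and neurons, and the median level of 8 photoreceptor markers ranged from 10.6 to 11.7 over the groups, and that of 11 pan-neuronal markers from 8.95 to 10.2.

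Other features of the arrays differed by group too. The 26 markers of testis and accessory gland had a median level of 6.29 with normal food and 2.61 to 3.01 in 9 groups, and in between lay moxifloxacin (4.61), levetiracetam (4.52), gemfibrozil (3.65), PTZ+mannitol (3.46) and PTZ (3.21). For the control transcripts, the 5′ signal minus the 3′ signal was nearest to 0 in PTZ+levetiracetam (-4.14) and PTZ+oxaprozin (-4.73), was -5.67 for PTZ and -6.42 for normal food, and lay from -6.21 to -5.50 elsewhere. The bioB hybridisation control lay at an upper level on 20 arrays, namely all arrays of mannitol, moxifloxacin, gemfibrozil, PTZ+glucosamine and PTZ+mannitol, with 1 from olmesartan and 1 from quinapril, and at a lower level on 38 arrays. The upper and lower arrays therefore cannot be told apart from the compound in the comparisons of mannitol, moxifloxacin and gemfibrozil with normal food, of PTZ+glucosamine and PTZ+mannitol with PTZ, and of PTZ+glucosamine with glucosamine.

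To compare groups, the level of each gene was set against its mean over the 15 groups, and these deviations were averaged over the genes of a complex on each array. Over all 51 subunit genes, normal food was lowest at -0.45 ± 0.013 (SD, n = 4). It was followed by moxifloxacin at -0.38 ± 0.019 (n = 2), levetiracetam at -0.38 ± 0.036 (n = 4) and glucosamine at -0.17 ± 0.036 (n = 4). PTZ alone stood near the middle at 0.055 ± 0.022, and PTZ+levetiracetam at 0.31 ± 0.052 and PTZ+oxaprozin at 0.33 ± 0.026 were highest. The arrays of those 2 combinations overlapped each other and lay above the arrays of every other group. In bulk heads, fewer cells of a type and less RNA per cell cannot be told apart, and this holds for every value below.

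The complexes shared the low end of this order and differed at the high end. Normal food had the lowest mean in complexes II, III, IV and V. Its arrays lay below all others in complex II, overlapped those of levetiracetam in complexes III, IV and V and those of moxifloxacin in complex V, and in complex I they overlapped those of moxifloxacin and levetiracetam, at -0.46 ± 0.018, -0.46 ± 0.011 and -0.40 ± 0.034. Complex II had the widest range of group means, 1.43, from -0.79 ± 0.050 in normal food to 0.63 ± 0.096 in PTZ+levetiracetam. Complex III had the narrowest, 0.392, and its highest group was olmesartan at 0.16 ± 0.028. PTZ+levetiracetam and PTZ+oxaprozin, the highest groups for complexes I, II and V, were among the lowest for complex III, at -0.13 ± 0.039 and -0.11 ± 0.040. The complex III values average 4 subunit genes and leave out RFeSP, its Rieske iron-sulfur protein, Cyt-c1 and ox. These genes of complex III are described under other observations. In complex IV the highest groups were PTZ+mannitol at 0.23 ± 0.011 and PTZ+oxaprozin at 0.20 ± 0.025, while PTZ+levetiracetam was at 0.051 ± 0.035. In complex V, PTZ+mannitol was at 0.0067 ± 0.013, below PTZ+levetiracetam at 0.42 ± 0.049 by more than the whole range of either group.

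**Figure D1:**
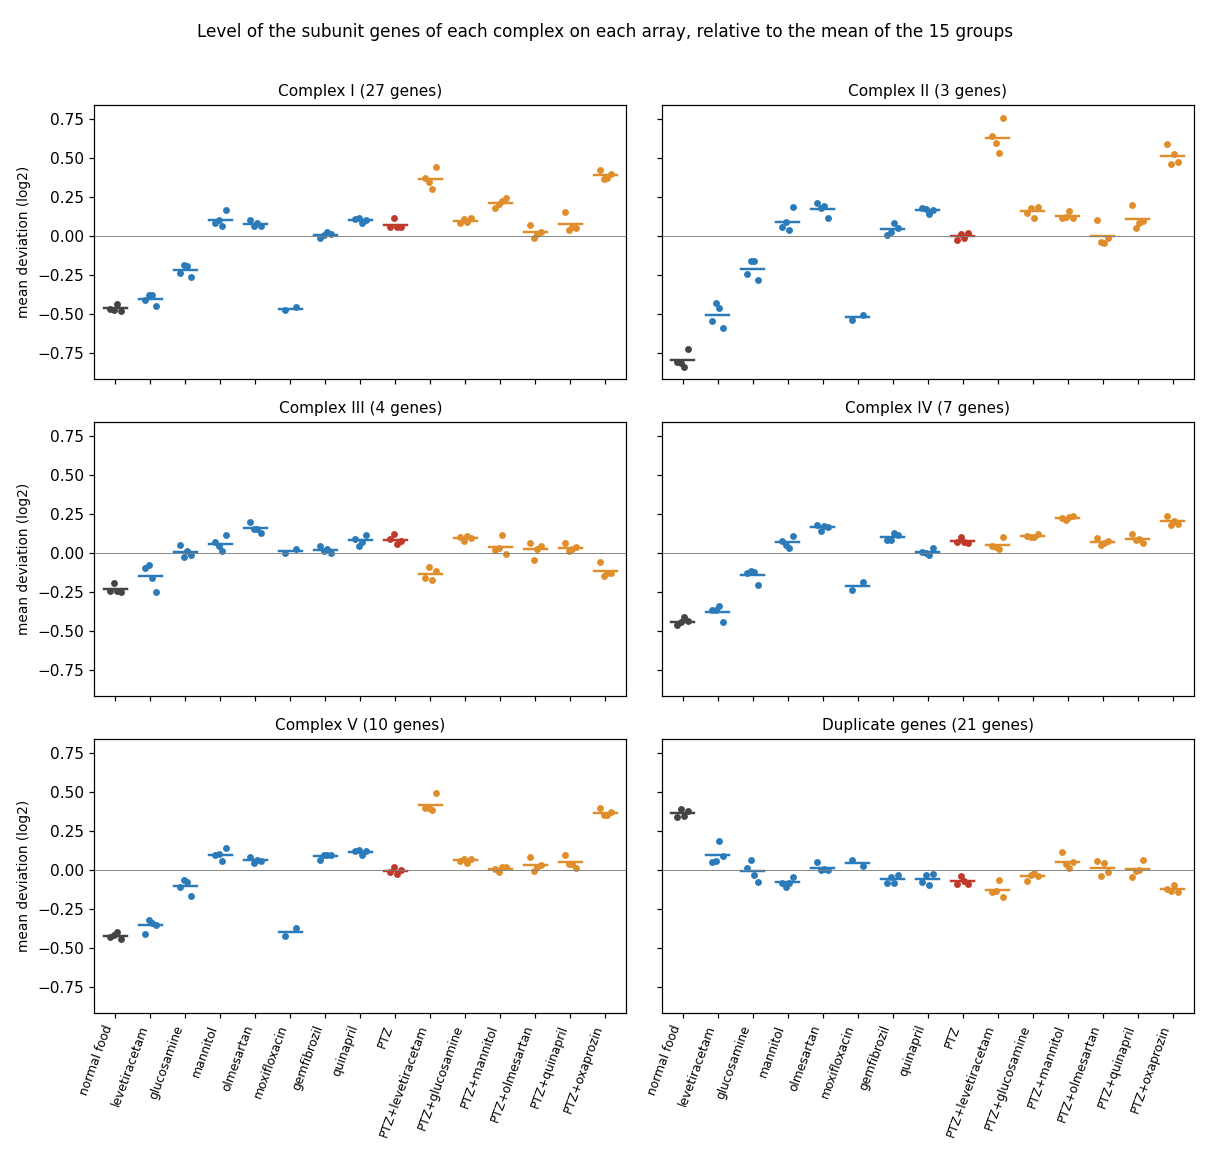
Mean deviation of the subunit genes of each complex and of the duplicate genes from their mean over the 15 groups (log2, y axis) on each array, by group (x axis); points are arrays, bars are group means, grey is normal food, blue single compounds, red PTZ and orange PTZ with a second compound. Normal food is at -0.79 in complex II and at 0.36 in the duplicate genes, and PTZ+levetiracetam is at 0.63 in complex II and -0.13 in complex III.

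Single genes followed several patterns. Normal food had the lowest group mean for 23 of the 51 subunit genes, moxifloxacin for 15, levetiracetam for 5 and PTZ+levetiracetam for 4. The highest group mean was in PTZ+mannitol for 19 genes, in PTZ+levetiracetam for 15 and in PTZ+oxaprozin for 11. How often each group was lowest or highest among all genes is not given here. The span from the lowest to the highest group mean had a median of 1.08 over the subunit genes, against a median of 0.92 over the 2222 genes with a mean level of at least 8, and the median SD within a group was 0.042. The span was smallest for COX4 at 0.381, a nuclear-encoded subunit of complex IV, and largest for ATPsynD at 2.63, a subunit of the peripheral stalk that holds the ATP synthase head in place.

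PTZ was set against normal food to see the effect of the convulsant alone. Of the 51 subunit genes 41 rose and 4 fell, with a median change of 0.57, where 50.3% of all probe sets were called, 23.9% higher and 26.4% lower, with a median change of -0.018. Among the 2222 genes with a mean level of at least 8, 43.8% rose and 42.2% fell. In complex I 22 of 27 genes rose and 2 fell with a median change of 0.57, in complex II 3 of 3 rose with a median of 0.82, in complex III 3 of 4 rose and 1 fell with a median of 0.47, in complex IV 6 of 7 rose with a median of 0.62, and in complex V 7 of 10 rose and 1 fell with a median of 0.39. All 26 testis and accessory gland markers fell in the same comparison, with a median change of -3.09, and 10 of 11 pan-neuronal markers fell, with a median of -0.52. Counts for muscle, photoreceptor, glia and fat body markers are not given for this comparison. The part of any of these markers in the result was not tested.

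Within complex I, the matrix arm, which takes up NADH and carries the iron-sulfur clusters, had 9 of 11 measured genes higher and 1 lower. The membrane arm, which pumps the protons, had 11 of 14 higher and 1 lower. ND-B14, an accessory subunit of the matrix arm, read 9.45, 9.46, 9.39 and 9.49 in normal food and 10.53, 10.60, 10.51 and 10.49 in PTZ. The groups did not overlap, and ND-B14 rose by 1.08 ± 0.036 (SE, limma adjusted p = 1.88e-30). ND-PDSW, an accessory subunit of the membrane arm, rose by 1.05 ± 0.056, from 8.45 ± 0.11 to 9.50 ± 0.049 (SD, n = 4 each). The core subunits of the matrix arm were not alike. ND-20, which holds the iron-sulfur cluster next to ubiquinone in mammals, rose by 1.01 ± 0.044, whereas ND-75, the large iron-sulfur subunit, changed by 0.02 ± 0.054 and was not called. ND-B8 fell by 0.41 ± 0.10 (adjusted p = 5.88e-04) at a low level, with 2.79, 2.58, 2.74 and 2.27 in normal food and 2.09, 2.22, 2.33 and 2.07 in PTZ, so that 1 normal food array lay within the range of PTZ. Its direction turned to 0.0432 with the 5′ to 3′ control signal as a covariate and to 0.0286 against the average of the other single compounds. ND-B16.6 fell by 0.11 ± 0.035 (adjusted p = 0.00792), but was higher by 0.034 when all arrays were shifted to a common median.

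Complex II, succinate dehydrogenase, links the citric acid cycle to the respiratory chain. SdhB, its iron-sulfur subunit, read 7.70, 7.61, 7.54 and 7.88 in normal food and 8.44, 8.54, 8.48 and 8.55 in PTZ, without overlap, and rose by 0.82 ± 0.063 (limma adjusted p = 2.77e-16). The membrane anchors SdhC and SdhD rose by 1.01 ± 0.041 and 0.54 ± 0.044. In complex III, the small subunits UQCR-14, UQCR-Q and UQCR-6.4 rose by 0.68 ± 0.031, 0.59 ± 0.046 and 0.36 ± 0.025. UQCR-11, another small subunit, fell by 0.35 ± 0.084 (adjusted p = 3.52e-04), from 6.69, 6.51, 6.55 and 6.53 to 6.29, 6.25, 6.15 and 6.19, but differed by 0.0266 against the average of the other single compounds. In complex IV, COX8 rose by 0.94 ± 0.037 and COX7A by 0.75 ± 0.041, both small nuclear-encoded subunits, and COX4 changed by 0.07 ± 0.031 and was not called.

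In complex V the 4 measured genes of the peripheral stalk rose. Of the rotor, the turning part of the enzyme, ATPsyndelta rose, ATPsyngamma fell and ATPsynC was not called. ATPsyndelta, a subunit of the central stalk, had the largest change of all 51 genes. It read 8.001, 8.058, 8.032 and 8.032 in normal food and 9.37, 9.38, 9.32 and 9.26 in PTZ, and rose by 1.30 ± 0.048, or 2.46-fold (limma adjusted p = 1.6e-28). ATPsynCF6, ATPsynD and ATPsynB of the peripheral stalk rose by 0.83 ± 0.042, 0.73 ± 0.061 and 0.68 ± 0.043, and ATPsynO, which joins it to the head, by 0.54 ± 0.038. ATPsyngamma, the rotor shaft, fell by 0.26 ± 0.038 (adjusted p = 4.27e-08), and the catalytic subunit ATPsynbeta and the membrane ring subunit ATPsynC changed by -0.06 ± 0.041 and -0.02 ± 0.033 and were not called. For ATPsyngamma and ATPsynbeta the choice of probe set decided the result: a dimmer probe set of ATPsyngamma differed by 0.79 in the other direction and one of ATPsynbeta by 1.01, and one of ND-B17 by 0.997 where the probe set used gave 0.0088. The plot of changes by complex shows all 51 genes.

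**Figure D2:**
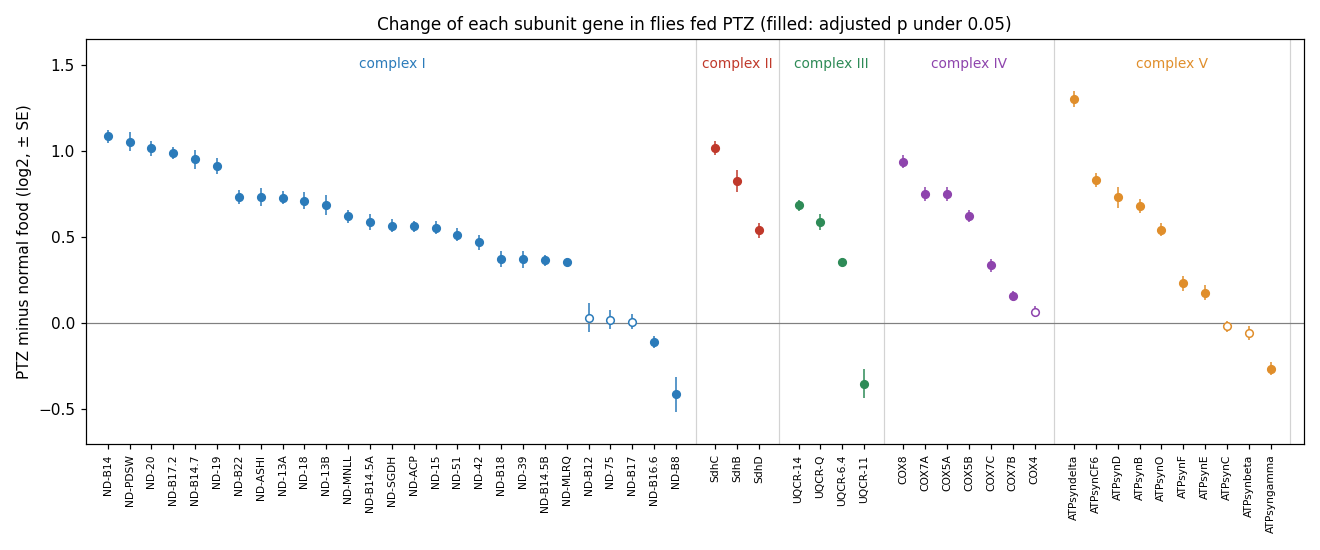
Change of each of the 51 subunit genes between flies fed PTZ and normal food (log2, y axis, ± SE), ordered by size within each complex (x axis); filled points were called at an adjusted p under 0.05 and open points were not. Changes run from -0.41 for ND-B8 to 1.30 for ATPsyndelta, and 41 genes rose and 4 fell.

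The other 7 single compounds were also set against normal food, so these comparisons share their 4 control arrays with that of PTZ and with each other, and are given side by side. With olmesartan 45 of 51 subunit genes rose and 3 fell, with a median change of 0.62 (50.1% of all probe sets called). With mannitol 44 rose and 5 fell, with a median of 0.50 (48.2% called), with quinapril 43 rose and 4 fell, with a median of 0.54 (49.1% called), and with gemfibrozil 42 rose and 4 fell, with a median of 0.53 (46.0% called). Glucosamine gave 39 higher and 2 lower with a median of 0.31 (41.4% called), or 34 higher and 6 lower after a repeated quantile normalization. Levetiracetam gave 22 higher and 10 lower with a median of 0.053 (38.3% called), or 30 higher and 4 lower with all arrays at a common median. Moxifloxacin gave 26 higher and 18 lower with a median of 0.17 (37.5% called). Of all probe sets, 25.7% were higher and 24.4% lower with olmesartan, 22.9% and 25.4% with mannitol, 25.1% and 24% with quinapril, and 25.3% and 20.8% with gemfibrozil. The same shares were 22.4% and 18.9% with glucosamine, 21% and 17.3% with levetiracetam, and 17.6% and 19.9% with moxifloxacin. Among the genes with a mean level of at least 8, 46.3% were higher and 43.7% lower with olmesartan, 44.8% and 44.6% with mannitol, 46% and 42.5% with quinapril, and 51.8% and 30.9% with gemfibrozil. Those shares were 42.6% and 35.9% with glucosamine, 38.5% and 31.2% with levetiracetam, and 42.3% and 31.2% with moxifloxacin. The 22 of 51 subunit genes higher with levetiracetam and the 26 of 51 higher with moxifloxacin were thus near the share of bright genes.

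Normal food enters each of these differences, so the result depends on it. With the average of the remaining single compounds in place of normal food, PTZ gave 32 subunit genes higher and 2 lower, and olmesartan 44 higher and 2 lower. Gemfibrozil gave 37 higher and 4 lower, quinapril 36 and 9, and mannitol 30 and 6. The direction turned for the other 3 compounds: levetiracetam gave 1 higher and 43 lower, glucosamine 5 higher and 28 lower, and moxifloxacin 7 higher and 37 lower. Compounds set against each other must fall on both sides of their mean, whatever the level in normal food. This turn therefore gives the order among the compounds and cannot decide how far the rises depend on normal food. With the same reference, 39.2% of the genes with a mean level of at least 8 were higher and 33.9% lower in PTZ, 39.7% and 36.3% in olmesartan, 44.2% and 27.7% in gemfibrozil, 35.1% and 40.1% in quinapril and 38.1% and 39.4% in mannitol. In levetiracetam they were 34.7% and 47.9%, in glucosamine 25.7% and 36.7%, and in moxifloxacin 41.8% and 34.1%. Over all probe sets, 13.8% to 24.2% were higher and 14% to 23.4% lower in these 8 comparisons.

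SdhB had the largest rise in 5 of these 7 comparisons. Its mean level was 7.68 ± 0.15 (SD, n = 4) in normal food, 9.30 ± 0.024 in quinapril, 9.24 ± 0.12 in mannitol, 9.11 ± 0.074 in gemfibrozil, 9.08 ± 0.083 in olmesartan and 8.60 ± 0.12 in glucosamine. It rose by 1.62 ± 0.063 with quinapril, or 3.07-fold (limma adjusted p = 1.57e-27), by 1.57 with mannitol, 1.43 with gemfibrozil, 1.40 with olmesartan and 0.92 with glucosamine. With levetiracetam ND-PDSW had the largest rise, 0.60 ± 0.056, and SdhB rose by 0.58. The largest falls were in UQCR-11, by 0.52 with mannitol, 0.54 with olmesartan and 0.82 with gemfibrozil, and in ND-B8, by 0.38 with levetiracetam, 0.52 with glucosamine and 0.57 with quinapril, at levels of ND-B8 below the array medians. Against the mean of the other compounds, SdhB differed by -0.31 in PTZ and -0.25 in glucosamine, and ND-PDSW by -0.25 in levetiracetam.

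In moxifloxacin 12 of the 27 complex I genes rose and 12 fell, with 5 higher and 4 lower of 11 in the matrix arm and 5 higher and 8 lower of 14 in the membrane arm. Among the genes with a mean level of at least 8, 42.3% rose and 31.2% fell, so the 12 of 27 that rose were near that share. Of all probe sets, 17.6% rose and 19.9% fell. ND-B18, a membrane arm subunit, read 7.90, 7.91, 7.91 and 7.90 in normal food and 7.28 and 7.28 in moxifloxacin and fell by 0.63 ± 0.056 (limma adjusted p = 2.22e-13). UQCR-14 of complex III had the largest rise, by 0.71 ± 0.038, from 11.60 ± 0.050 to 12.31 ± 0.018, and ND-15 of the membrane arm rose by 0.70 ± 0.046. The mean deviation of the membrane arm was -0.56 and -0.56 on the arrays of moxifloxacin, below all 4 arrays of normal food, which ran from -0.47 to -0.43. In complex IV 5 of 7 genes rose and 1 fell, and in complex V 4 of 10 rose and 4 fell. This group had 2 arrays, and 22 of the 26 testis and accessory gland markers fell in it.

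When levetiracetam was added to PTZ, genes went both ways within every complex but complex II, and the share that rose differed between complexes. Against PTZ alone, 32 of 51 subunit genes rose and 13 fell with a median change of 0.19 (38.5% of all probe sets called, 18.4% higher and 20% lower). In complex I 17 of 27 rose and 6 fell, in complex II 3 of 3 rose and in complex V 8 of 10 rose and 1 fell. In complex III 1 of 4 rose and 3 fell, and in complex IV 3 of 7 rose and 3 fell. Outside these 51 genes, RFeSP and Cyt-c1 of complex III rose and ox of complex III fell, as described under other observations. Among the genes with a mean level of at least 8, 29.3% rose and 52.0% fell. Adding oxaprozin gave 33 of 51 higher and 9 lower with a median of 0.20 (35.6% of all probe sets called, 17.8% in each direction), or 28 higher and 14 lower after a repeated quantile normalization, with 1 higher and 3 lower in complex III and 3 higher and 2 lower in complex IV. Called genes also differed in level. With levetiracetam the genes that fell had a median level of 11.21 over all arrays, and those that rose 9.84. With oxaprozin these medians were 12.06 and 9.68. The part of signal level in the split was not tested.

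ATPsynD had the largest rise in both. It read 9.03, 9.12, 9.07 and 9.09 in PTZ, 10.78, 10.77, 10.62 and 10.95 in PTZ+levetiracetam, and 10.71, 10.54, 10.65 and 10.65 in PTZ+oxaprozin. The arrays with PTZ alone lay below all 8 others, and the change was 1.70 ± 0.061 (3.26-fold, limma adjusted p = 3.07e-28) with levetiracetam and 1.56 ± 0.061 (2.96-fold) with oxaprozin. SdhB rose by 1.45 and 1.18 in the same order, ND-B22, a membrane arm subunit, by 1.10 and 1.10, and ATPsyndelta by 1.04 and 0.74. The largest fall with levetiracetam was in UQCR-6.4, by 0.43 ± 0.025, from 12.47, 12.52, 12.48 and 12.52 to 12.09, 12.05, 12.05 and 12.10. With oxaprozin it was in UQCR-11, by 0.52 ± 0.084, and UQCR-6.4 fell by 0.33. UQCR-14 fell by 0.31 and 0.21, ND-15 by 0.37 and 0.24, and ND-MLRQ by 0.34 and 0.19 in the 2 comparisons.

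The 5′ to 3′ control signal differed most from PTZ in these 2 groups. With that signal as a covariate in the fit, PTZ+levetiracetam gave 12 subunit genes higher and 12 lower, with a median of 0.046, and PTZ+oxaprozin 20 higher and 8 lower, with a median of 0.11. With the covariate the change of ATPsynD was 1.27 and 1.30, that of SdhB 1.08 and 0.95, that of ND-B22 0.92 and 0.99 and that of UQCR-6.4 -0.53 and -0.40, all of them called. COX7A, which rose by 0.19 with levetiracetam, was no longer called (adjusted p = 0.347 with the covariate, from limma). The same covariate left PTZ against normal food at 40 higher and 4 lower. For the fit with the covariate no share of all probe sets is given here. Its counts can therefore not be set against the array as a whole.

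**Figure D3:**
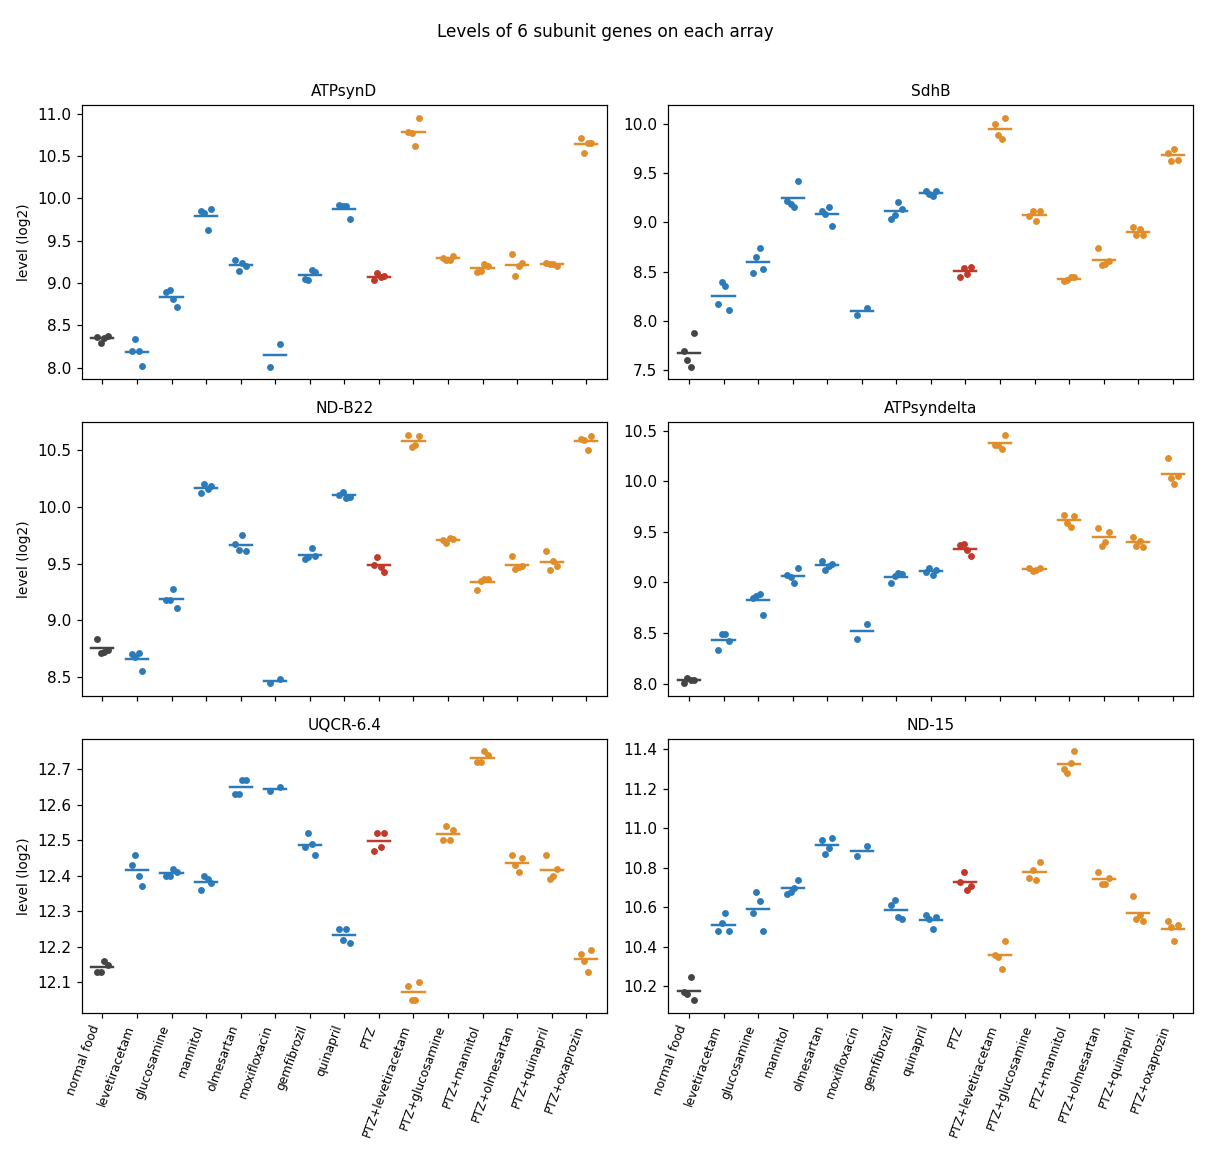
Level (log2, y axis) on each array of 6 subunit genes by group (x axis, colours as in the plot of complexes); bars are group means. ATPsynD, SdhB, ND-B22 and ATPsyndelta are highest in PTZ+levetiracetam (10.78, 9.95, 10.59 and 10.38), UQCR-6.4 is lowest there (12.07), and ND-15 is highest in PTZ+mannitol (11.33).

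The other 4 combinations moved fewer subunit genes from PTZ, and fewer of all probe sets as well. PTZ+mannitol gave 25 of 51 higher and 9 lower with a median of 0.12 (33.5% of all probe sets called). ND-15 read 10.73, 10.78, 10.69 and 10.71 in PTZ and 11.30, 11.28, 11.33 and 11.39 in PTZ+mannitol and rose by 0.60 ± 0.038 (limma adjusted p = 1.31e-18), and UQCR-11 fell by 0.57 ± 0.084. Complex IV had 5 of 7 genes higher and 1 lower, and complex V 3 of 10 higher and 2 lower. PTZ+glucosamine gave 11 higher and 4 lower (24.1% called, 11.7% higher and 12.4% lower), or 9 and 6 with all arrays at a common median, with SdhB up by 0.58 ± 0.063 and ND-20 down, by -0.29 ± 0.044. PTZ+olmesartan gave 4 higher and 11 lower (30.4% called, 15.5% higher and 14.9% lower), or 3 and 27 with all arrays at a common median, with ATPsynCF6 at 0.27 ± 0.042 and ND-B18 at -0.29 ± 0.046. PTZ+quinapril gave 7 higher and 6 lower (21.5% called, 9.82% higher and 11.6% lower), or 6 and 13 with arrays at a common median and 14 and 5 after a repeated quantile normalization, with SdhB at 0.40 ± 0.063 and ND-20 at -0.26 ± 0.044. SdhB turned to -0.0368 in PTZ+glucosamine and -0.245 in PTZ+quinapril against the mean of the other combinations. Among the genes with a mean level of at least 8, 32.5% were higher and 38.6% lower in PTZ+mannitol, 23.9% and 26% in PTZ+glucosamine, 26.1% and 24.7% in PTZ+olmesartan, 17% and 30.4% in PTZ+quinapril, and 34.5% and 41.1% in PTZ+oxaprozin. The 11 of 51 subunit genes higher in PTZ+glucosamine and the 7 of 51 higher in PTZ+quinapril were thus near the share of bright genes. In PTZ+mannitol 71.1% of the bright genes were called in either direction, near the share of subunit genes called. These 6 comparisons share the 4 PTZ arrays.

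The effect of PTZ was also measured in flies that ate a second compound, as the combination against that compound alone. These pairs share no arrays with each other. On levetiracetam 38 of 51 subunit genes rose and 6 fell with a median of 0.65 (50.5% of all probe sets called), or 35 and 11 after a repeated quantile normalization, and on glucosamine 42 rose and 2 fell with a median of 0.26 (31.1% called). On mannitol 28 rose and 13 fell with a median of 0.14 (43.1% called). On quinapril 16 rose and 13 fell with a median of 0.037 (40.4% called), or 21 and 12 with arrays at a common median and 23 and 12 after a repeated quantile normalization. On olmesartan 7 rose and 22 fell with a median of -0.094 (28.5% called). The share of all probe sets called higher was 22.7% on levetiracetam, 15.2% on glucosamine, 21.1% on mannitol, 20.3% on quinapril and 13.3% on olmesartan. Among the genes with a mean level of at least 8, 39.1% were higher and 48.1% lower on levetiracetam, 40.7% and 32.4% on glucosamine, 40% and 39.2% on mannitol, 34% and 36.5% on quinapril, and 32.9% and 31.3% on olmesartan.

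By complex, the median change with PTZ was largest on plain food and on levetiracetam for complexes I, II, IV and V. Complex II had medians of 0.82 on normal food, 1.07 on levetiracetam, 0.42 on glucosamine, 0.28 on mannitol, 0.024 on quinapril and -0.055 on olmesartan. Complex I had 0.57, 0.74, 0.32, 0.11, 0.054 and -0.10 in the same order. The median of complex III departed from this on levetiracetam, where it was -0.15, against 0.47 on normal food. Its 4 genes split there, with changes of 0.73 for UQCR-Q and 0.053, -0.34 and -0.40 for the others. RFeSP, the Rieske iron-sulfur protein of complex III, is not in this median, and neither are Cyt-c1 and ox of the same complex. As described under other observations, RFeSP and Cyt-c1 rose when levetiracetam was added to PTZ, while ox fell. Complex IV had 0.62 on normal food, 0.41 on levetiracetam and 0.25 on mannitol, and complex V 0.39, 0.58 and 0.081.

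Genes of the same complex moved apart on mannitol. PTZ+mannitol against mannitol raised ND-20 by 0.94 ± 0.044, from 9.23, 9.31, 9.17 and 9.34 to 10.24, 10.18, 10.17 and 10.23 (limma adjusted p = 2.52e-24). ND-B22 fell by 0.83 ± 0.041, from 10.12, 10.20, 10.16 and 10.19 to 9.26, 9.35, 9.37 and 9.37. In complex II SdhC rose by 0.64 and SdhB fell by 0.82, and in complex V ATPsyndelta rose by 0.55 and ATPsynD fell by 0.62. ATPsynD had the largest change of any subunit gene on levetiracetam, where it rose by 2.59 ± 0.061 (6.02-fold) from 8.20, 8.34, 8.20 and 8.03. On quinapril it had the largest fall, by 0.65 ± 0.061, and ATPsyndelta the largest rise, 0.29 ± 0.048. On olmesartan ND-20 rose by 0.46 ± 0.044 and SdhB fell by 0.46 ± 0.063, and on glucosamine ND-B17.2, a matrix arm subunit, rose by 0.68 ± 0.035 and UQCR-11 fell by 0.43 ± 0.084.

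**Figure D4:**
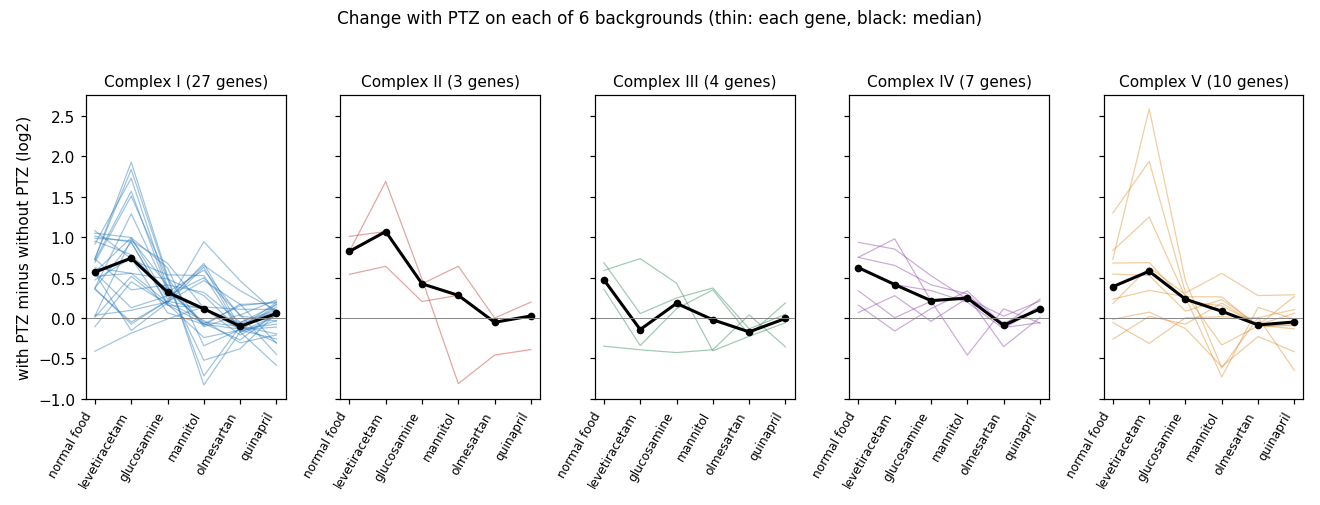
Change with PTZ (log2, y axis) of each subunit gene (thin lines) and the median of its complex (black) on 6 backgrounds (x axis), 1 panel per complex. The median of complex II runs from 1.07 on levetiracetam to -0.055 on olmesartan, and single genes run from 2.59 (ATPsynD on levetiracetam) to -0.83 (ND-B22 on mannitol).

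The difference of the PTZ effect between each background and normal food was tested in the same limma fit. These 5 differences share the arrays of PTZ and normal food. It was lower than on normal food for 44 of 51 subunit genes and higher for 3 on olmesartan (46.5% of all probe sets called), for 42 and 4 on quinapril (42.3%), for 35 and 6 on mannitol (44.0%) and for 37 and 5 on glucosamine (36.5%). On levetiracetam it was higher for 20 and lower for 12 (35.7% called, 16.7% higher and 19% lower), or 19 and 18 with arrays at a common median and 18 and 18 after a repeated quantile normalization. Among the genes with a mean level of at least 8, the effect was lower for 44.6% on olmesartan, 42.7% on quinapril, 43% on mannitol, 36.7% on glucosamine and 43.2% on levetiracetam. SdhB, for example, stood at 7.68 in normal food and 8.50 in PTZ, and at 9.24 in mannitol and 8.43 in PTZ+mannitol.

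With the 6 backgrounds as 6 independent pairs, the spread between backgrounds was the error. None of the 51 subunit genes was called by limma, where 2.95% of all probe sets were, and 19 had an unadjusted p under 0.05, 17 of them higher, against 21.7% of all probe sets at that p. The median change was 0.26 and the smallest adjusted p was 0.0688, for UQCR-11. When the spread between arrays was the error instead, 57 of all 72 genes were called, 48 higher and 9 lower. The share of all probe sets called that way is not given here, so this count has no yardstick. By sign alone, 5 subunit genes were higher with PTZ on 6 of 6 backgrounds (ND-20, ND-ACP, ND-B12, ND-PDSW and ATPsyndelta), 15 on 5, 17 on 4, 11 on 3, 1 on 2 (ND-B16.6) and 2 on 1 (UQCR-11 and ATPsynC). These sign counts are not set against those of all genes. ND-B12, with a mean level of 4.67, changed by 0.032 on normal food (limma adjusted p = 0.794) and 0.094 on levetiracetam. ATPsyndelta changed by 1.30, 1.94, 0.31, 0.55, 0.28 and 0.29 on normal food, levetiracetam, glucosamine, mannitol, olmesartan and quinapril, and ND-20 by 1.01, 0.94, 0.18, 0.94, 0.46 and 0.054.

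The duplicate genes ran opposite to the subunit genes in normal food. Their mean deviation was 0.36 ± 0.024 there (SD, n = 4), with arrays from 0.34 to 0.39, above every array of the other 14 groups, and -0.074 ± 0.024 in PTZ. Normal food had the highest group mean for 11 of the 21, a count that is not set here against all genes. Between PTZ and normal food 12 duplicate genes fell, 2 rose and 7 were not called, with a median change of -0.38, where 26.4% of all probe sets fell and 23.9% rose. In the comparisons of the other compounds with normal food, which share those control arrays, 10 to 13 of 21 fell and 0 to 3 rose, where 17.3% to 25.4% of all probe sets fell and 17.6% to 25.7% rose. The testis and accessory gland markers were also highest in normal food, and their part in the result was not tested.

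COX4L, a duplicate of the complex IV subunit gene COX4, read 4.11, 4.39, 3.90 and 4.66 in normal food and 2.47, 2.43, 2.58 and 2.37 in PTZ, without overlap. It fell by 1.80 ± 0.12 (limma adjusted p = 5.03e-19), while its parent gene COX4 was not called. COX4L lay below the array medians in all 14 groups other than normal food, and against the average of the other single compounds it differed in PTZ by -0.16 and was not called. COX7AL fell by 1.33 ± 0.14, from 4.20, 4.53, 3.99 and 4.30 to 2.73, 2.80, 2.92 and 3.22, whereas COX7A rose. COX7AL was back at 4.09, 4.23, 4.23 and 4.40 in PTZ+mannitol, within the range of normal food, and rose by 1.32 ± 0.14 there against PTZ, where the marker median was 3.46. The level of COX7AL in PTZ was likewise below the array medians, and its difference turned to 0.0669 against the average of the other single compounds. The smaller falls, all from levels under 4 in normal food, were in ATPsynGL (-0.86), SdhCL (-0.70), COX6CL (-0.68), COX5BL (-0.67), UQCR-14L (-0.49), COX6AL2 (-0.46), ATPsynCF6L (-0.45), COX6AL (-0.38) and SdhBL (-0.19). ATPsynepsilonL rose by 0.44 ± 0.10. Not called were ND-20L, ND-24L, ND-51L1, ND-51L2, ND-B14.5AL, SdhAL and ATPsynbetaL, with changes from -0.23 to 0.23.

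UQCR-11L and COX7AL2 followed other orders. UQCR-11L, a duplicate of the complex III gene UQCR-11, read 7.29, 7.28, 7.37 and 7.40 in normal food and 5.79, 5.80, 5.85 and 5.93 in PTZ, and fell by 1.49 ± 0.062 (limma adjusted p = 3.38e-26). It was highest in levetiracetam at 7.78 ± 0.068 (SD, n = 4) and lowest in PTZ+mannitol at 5.55 ± 0.12. It was the only one of the 72 genes called over the 6 backgrounds, with a change of -1.16, and leaving out any 1 of the pairs other than that on olmesartan ended the call. COX7AL2 rose by 0.13 ± 0.034 with PTZ. Its group means ran from 10.09 ± 0.050 in PTZ+levetiracetam to 11.19 ± 0.042 in PTZ+mannitol, and normal food at 10.56 ± 0.051 lay inside that range.

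**Figure D5:**
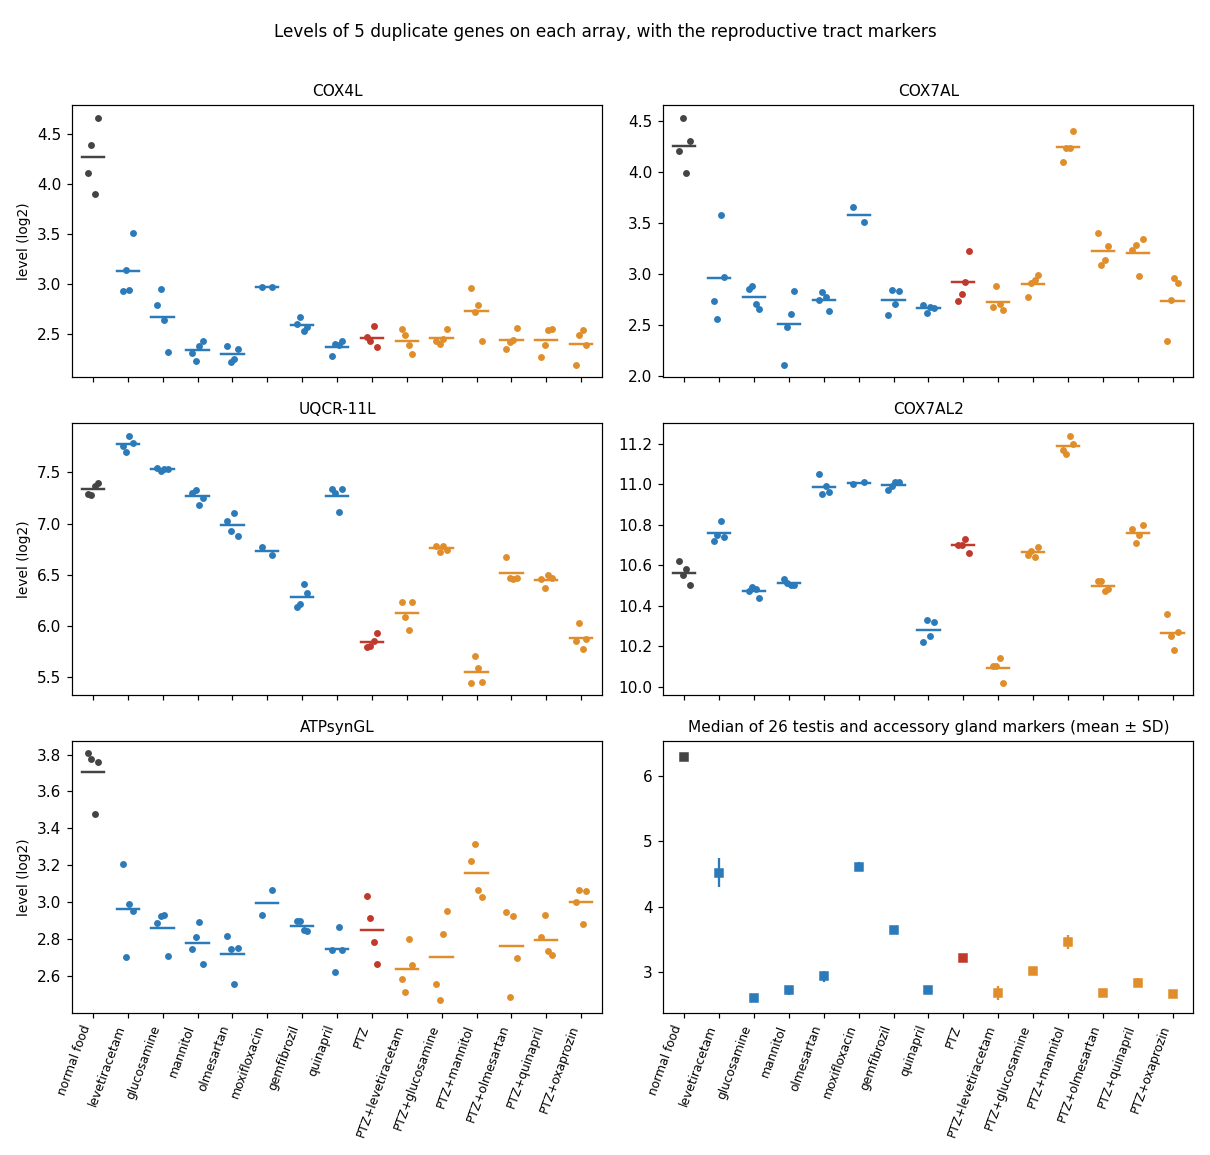
Level (log2, y axis) on each array of 5 duplicate genes by group (x axis, colours as in the plot of complexes), with bars at group means, and the median of 26 testis and accessory gland markers (lower right, mean ± SD). COX4L, ATPsynGL and the marker median are highest in normal food (4.26, 3.71 and 6.29), UQCR-11L is highest in levetiracetam (7.78) and COX7AL2 in PTZ+mannitol (11.19).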

How the data were processed

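The values were deposited by the authors as log2 expression of 18952 probe sets on 58 arrays. Per the submitters' processing notes RMA and limma were used, with versions not named in the sources used here. Array medians ran from 3.6757 to 3.8486. After 183 control probe sets were left out, 18769 were tested with limma 3.58.1 in R 4.3.3 (group means, eBayes, Benjamini-Hochberg adjustment, called under 0.05), and tables and plots used Python 3.11.15, pandas 2.3.3 and matplotlib 3.10.9. Of these, 13647 probe sets had 1 gene symbol in the platform annotation, 402 several and 4720 none, and 13544 matched RefSeq.

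The members and lists were chosen with earlier results of these data known. Genes were named by rule: the 2 largest rises and 2 largest falls per complex for PTZ, the largest rise and fall elsewhere, and all duplicates. Other genes, given for contrast within a complex, were chosen after their values were seen. Replicate numbers did not pair arrays: residuals of same-numbered arrays correlated at -0.19 to 0.267 (median 0.000234, 392 pairs), others at -0.322 to 0.282 (1176 pairs). On simulated data over 18769 probe sets, the comparison of PTZ with normal food recovered 34% of changes of size 0.25 and 89% of size 0.5. The changes were put into a few probe sets drawn at random from all levels. These percentages therefore do not give the recovery for the mostly bright subunit genes. Alternatives were the normalization, scaling, covariates, reference group, probe set choice and leaving out arrays.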

Additional observations from a re-analysis of the deposited data

Results flagged for a closer look

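Of 126 summaries of a group of 4 arrays, 9 had an array far from the other 3, where chance alone flags about 1 in 20. Over all subunit genes, array 3 of quinapril was lowest at 0.074, with the next at 0.1. In complex I array 2 of PTZ was highest at 0.114 (next 0.0619), and in the matrix arm of complex I array 3 of normal food was highest at -0.463 (next -0.497). In complex II array 3 of PTZ+mannitol was highest at 0.161 (next 0.12), and in complex III array 2 of normal food at -0.195 (next -0.244). In complex IV array 4 of glucosamine was lowest at -0.202 (next -0.127), and array 4 of PTZ+glucosamine highest at 0.124 (next 0.106). In complex V array 1 of gemfibrozil was lowest at 0.0652 (next 0.0948). Among the duplicate genes array 1 of olmesartan was highest at 0.0506 (next 0.00367).

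The effect of PTZ differed between a second compound and normal food by limma for the largest difference in each direction. On levetiracetam the difference was 1.86 for ATPsynD (adjusted p = 1.72e-23) and -0.71 for ND-15 (9.82e-16). On glucosamine it was 0.40 for ND-B8 (adjusted p = 0.0258) and -0.992 for ATPsyndelta (2.41e-17). On mannitol it was 0.55 for ND-B8 (adjusted p = 0.00143) and -1.64 for SdhB (1.39e-21), and on olmesartan 0.521 for ND-B8 (adjusted p = 0.00235) and -1.28 for SdhB (1.82e-17). On quinapril it was 0.529 for ATPsyngamma (adjusted p = 7.53e-12) and -1.38 for ATPsynD (5.06e-19). The ATPsyngamma difference turned to -0.181 as the mean of its probe sets, and ND-B8 lay below the array medians of 3.6757 to 3.8486.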

How the results depend on the processing

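Over all alternatives, 453 counts of called members stayed within 1.5 times the reported count and 18 moved further, and of 1493 values for single genes 1412 kept their direction and call, 42 lost and 10 gained the call and 29 changed direction; the causes were not tested. Among the alternatives, a changed reference compares other groups and so asks another question. Counts are of all 72 genes. Over the 6 backgrounds 1 gene was called, 2 after a repeated quantile normalization, 57 with the spread between arrays as the error, 2 without the olmesartan pair and 0 without any other pair. PTZ+olmesartan gave 22 against PTZ, 35 with arrays at a common median, 14 with only the groups compared and 44 against the mean of the other combinations. PTZ+quinapril gave 15, 6 with only the groups compared and 32 against the other combinations, and PTZ+glucosamine 18 and 35. With the 5′ to 3′ covariate PTZ+levetiracetam went from 50 to 25 and PTZ+oxaprozin from 44 to 29. Against the mean of the other compounds PTZ went from 59 to 37 and mannitol from 62 to 41. A common array median shifted the median of all genes by up to 0.146, by 0.142 for PTZ and 0.114 for gemfibrozil against normal food.

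Leaving out 1 array at a time gave 58 to 61 for PTZ, 41 to 45 for levetiracetam, 51 to 55 for glucosamine, 59 to 63 for mannitol, 59 to 61 for olmesartan, 46 to 58 for moxifloxacin, 58 to 61 for gemfibrozil and 58 to 61 for quinapril against normal food. Against PTZ it gave 48 to 50 with levetiracetam, 14 to 18 with glucosamine, 37 to 39 with mannitol, 17 to 24 with olmesartan, 12 to 16 with quinapril and 40 to 45 with oxaprozin. The replicate number as a block, although it did not pair arrays, left PTZ against normal food at 41 subunit genes higher and 4 lower.

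For PTZ against normal food the direction turned for ND-B8 (0.0432 with the covariate and 0.0286 against the other compounds), ND-B16.6 (0.0335 at a common median) and ATPsyngamma (0.265 as the mean of its probe sets). Against the other compounds it turned for SdhB (-0.311), UQCR-11 (0.0266), SdhBL (0.0959), COX6AL (0.181), COX7AL (0.0669) and COX7AL2 (-0.016). Uncalled ND-24L gave 0.0492, 0.109 and 0.122 and ND-51L2 0.0664, 0.0946, 0.221 and 0.0525 under scaling, covariate and reference, and without 1 array ND-B14.5AL gave -0.033 to 0.0971 and ATPsynbetaL -0.0143 to 0.0824. Against the other compounds levetiracetam gave -0.253 for ND-PDSW and 0.0677 for ND-B8, and glucosamine -0.248 for SdhB. Against the other combinations SdhB gave -0.0368 in PTZ+glucosamine and -0.245 in PTZ+quinapril, and the quinapril difference for ATPsyngamma was -0.181 as the mean of its probe sets.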

Other observations

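Genes of the same complexes with other symbols gave values beside those of the members, from lists chosen with earlier results known. Of 9 such genes 7 rose and 2 fell between PTZ and normal food, with a median change of 0.25, where 50.3% of all probe sets were called. NP15.6, a complex I membrane arm subunit, read 7.876, 7.803, 7.996 and 7.838 in normal food and 9.27, 9.32, 9.24 and 9.28 in PTZ and rose by 1.40 ± 0.043 (SE, limma adjusted p = 6.08e-32). RFeSP, the Rieske iron-sulfur protein of complex III, rose by 0.90 ± 0.049, Neb-cGP by 0.49 ± 0.032 and levy, a complex IV subunit, by 0.45 ± 0.047. Smaller rises were those of ox (0.25), cype (0.20) and blw (0.10), the alpha subunit of the ATP synthase, while Cyt-c1 (-0.08) and sun (-0.20) fell. When levetiracetam was added to PTZ, 5 of the 9 rose and 3 fell (38.5% of all probe sets called). RFeSP rose by 1.07, levy by 0.82, NP15.6 by 0.76, blw by 0.40 and Cyt-c1, of complex III, by 0.13. In contrast ox, also of complex III, fell by 0.42, Neb-cGP by 0.41 and sun by 0.50, and cype at -0.05 was not called.

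Of 12 assembly factors, which build the complexes, 10 rose with PTZ and none fell, with a median change of 0.38, where 23.9% of all probe sets rose and 26.4% fell, as for the next 2 lists. Of 11 genes of the citric acid cycle and pyruvate dehydrogenase, which supply NADH and succinate, 6 rose and 4 fell, with a median of 0.26 and changes from -0.29 for Ogdh to 0.85 for Idh. Of 8 transcription factors and other regulators known for mitochondrial genes, 1 rose and 4 fell, with a median of -0.165, so that the share called was near the 50.3% of all probe sets. Dref rose by 0.22, and foxo, ERR, ewg and Sirt1 fell by 0.68, 0.37, 0.35 and 0.31. Assembly factors gave 2 higher and 5 lower in moxifloxacin against normal food (17.6% and 19.9% of all probe sets), and 8 higher and 3 lower in PTZ+levetiracetam against PTZ (18.4% and 20%).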
